A study of Drosophila melanogaster with 12 samples.

Results

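Pm2 neurons, a single GABAergic cell type of the proximal medulla in the optic lobe of Drosophila melanogaster, were set against glia sorted from the same tissue, gene by gene. The comparison set 3 Pm2 libraries against 3 glia libraries, 6 of the 12 in the series. It covered the 10528 of 16272 gene names that reached 10 counts in 3 or more of the 12 libraries. All 12 libraries entered the fit, so libraries outside the comparison also shaped the scaling and the spread behind the p-values. The series holds T4 neurons and all neurons as well, and it names the sorted neurons and glia as controls for its single cell types. Per the labels, both groups came from adults aged 3 days with the strain given as Canton-S, and both carried the nuclear red reporter UAS-Red Stinger. Pm2 libraries came from a Gal4 line for that cell type, and the glia libraries are titled for Repo, the glial homeodomain protein. Neither group received a treatment. Labelled cells of dissociated brains were sorted by fluorescence, and full-length cDNA made from subnanogram amounts of total RNA was sequenced in read pairs of 100 bases.

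Each population had its own driver line, so population and driver line cannot be told apart. The tissue label calls every sample optic lobe neurons, the glia included. No label ties the libraries to separate animals or pools of animals, so p-values measure the spread between libraries, which may be technical. Which libraries shared a sequencing lane is not stated.

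GABA is the main fast inhibitory transmitter of the fly brain. It is made from glutamate by glutamate decarboxylase, loaded into synaptic vesicles and opens chloride channels on the receiving cell. Glia take up GABA and glutamate after release, turn glutamate into glutamine, supply sugars and other fuels, buffer ions, wrap neurons and form the barrier to the blood.

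Library totals were 51397068 to 57811629 counts in Pm2 and 49893609 to 57631228 in glia. Levels are given as CPM, counts per 1000000 counts of the scaled library total, and differences as log2 of Pm2 over glia with their standard error (SE). Log2 levels correlated across genes (Pearson; genes are not independent replicates) at 0.980 to 0.982 between Pm2 libraries, at 0.935 to 0.943 between glia libraries and at 0.637 to 0.650 between Pm2 and glia. The 10 genes with most counts held 10.3% to 11% of the counts in Pm2 libraries and 18.9% to 22% in glia libraries. A gene with no count in Pm2 lies below 0.0186 CPM and one with no count in glia below 0.0221 CPM, from 3 counts over the 3 libraries. These limits cover counting error only.

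The 2 marker genes matched the labels. Gad1, the glutamate decarboxylase gene (FBgn0004516; 3L, 4074077 to 4088744, BDGP6 assembly), had 13252, 11784 and 12300 CPM in Pm2, against 31.5, 46.4 and 50 CPM in glia. Every Pm2 library was above every glia library, and the log2 difference was 8.19 ± 0.49 (SE; edgeR quasi-likelihood test, Benjamini-Hochberg adjusted p = 6.04e-08). The glial transcription factor gene repo (FBgn0011701; 3R, 18236192 to 18239602) had no count in any Pm2 library, against 3392, 3035 and 3853 CPM in glia. It was thus at least 184524-fold lower in Pm2 (edgeR adjusted p = 6.36e-07).

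Marker lists of both populations were also measured. Over all 10528 tested genes, 33.8% were called higher and 32.2% lower in Pm2, which is the background for every count of members. Of 24 pan-neuronal genes, 23 were higher in Pm2 and 0 lower, and their summed level was 34503 to 38702 CPM in Pm2 and 1466 to 1730 CPM in glia. Of 22 pan-glial genes, 21 were tested, of which 1 was higher and 19 lower in Pm2, and they summed to 431 to 484 CPM in Pm2 and 45244 to 56161 CPM in glia. The engulfment receptor gene drpr made up 326 ± 18 CPM of the pan-glial sum in Pm2 (SD, n = 3). The 1 pan-glial gene called higher in Pm2, CG6126, was low in both, at 0.577 ± 0.338 CPM in Pm2 and 0.0564 ± 0.0625 CPM in glia, and lost its call under 4 of 16 alternatives. The level of brp, a scaffold gene of active zones, was 1841 ± 131 CPM in Pm2 and 18.3 ± 8.06 CPM in glia. The neuronal RNA-binding protein gene elav stood at 417 ± 24 CPM in Pm2 and 138 ± 24.1 CPM in glia, and 34.2% of its exon length is shared with another gene. In such bulk samples, fewer cells of a type and less RNA per cell cannot be told apart.

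Marker lists of other cell types were measured in the same way. Haemocyte markers summed to 113 to 132 CPM in Pm2 and 183 to 245 CPM in glia, with 0 higher and 1 lower of 5 tested out of 11, and 6 of the 11, NimC1 and eater among them, had no count in Pm2. Of 10 fat body markers 5 were tested and all 5 were lower in Pm2, with sums of 0.604 to 2.78 CPM in Pm2 and 638 to 1437 CPM in glia. The glia sum came mostly from the transferrin gene Tsf1, at 0.546 ± 0.425 CPM in Pm2 and 1052 ± 404 CPM in glia. Muscle markers, 0 higher and 5 lower of 8 tested out of 13, summed to 1.59 to 2.21 CPM in Pm2 and 18.2 to 44.3 CPM in glia, and tracheal markers, 0 higher and 1 lower of 6 tested out of 8, to 12.5 to 14.4 CPM in Pm2 and 45.9 to 59.9 CPM in glia. Photoreceptor markers, 4 higher and 5 lower of 15 tested out of 21, summed to 1653 to 1734 CPM in Pm2 and 1062 to 1656 CPM in glia. Most of the Pm2 sum was the eye matrix gene eys, which averaged 900 CPM in Pm2 and 197 CPM in all neurons. The carotenoid enzyme gene ninaB averaged 669 CPM in glia. The main opsin gene ninaE had no count in Pm2 and 3.22 ± 1.8 CPM in glia. Of 9 Kenyon cell markers 8 were tested, with 2 higher and 4 lower, and their sums were 1905 to 2123 CPM in Pm2 and 1677 to 1856 CPM in glia. The part of these cells in the differences was not tested.

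Of the 10528 genes tested, 6949 or 66.0% were called at an edgeR adjusted p below 0.05. Pm2 had 3555 genes called higher and 3394 called lower. Differences were often large: 1135 genes were higher and 1336 lower in Pm2 by at least 16-fold, and 558 were higher and 880 lower by at least 100-fold. The median log2 difference over all tested genes was 0.00 and the median size was 1.44. Pm2 and glia libraries did not overlap in 7262 genes, 69.0%. At least 100 counts in each Pm2 library and no count in glia were found for 92 genes, and at least 100 counts in each glia library and no count in Pm2 for 194 genes.

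**Figure D1:**
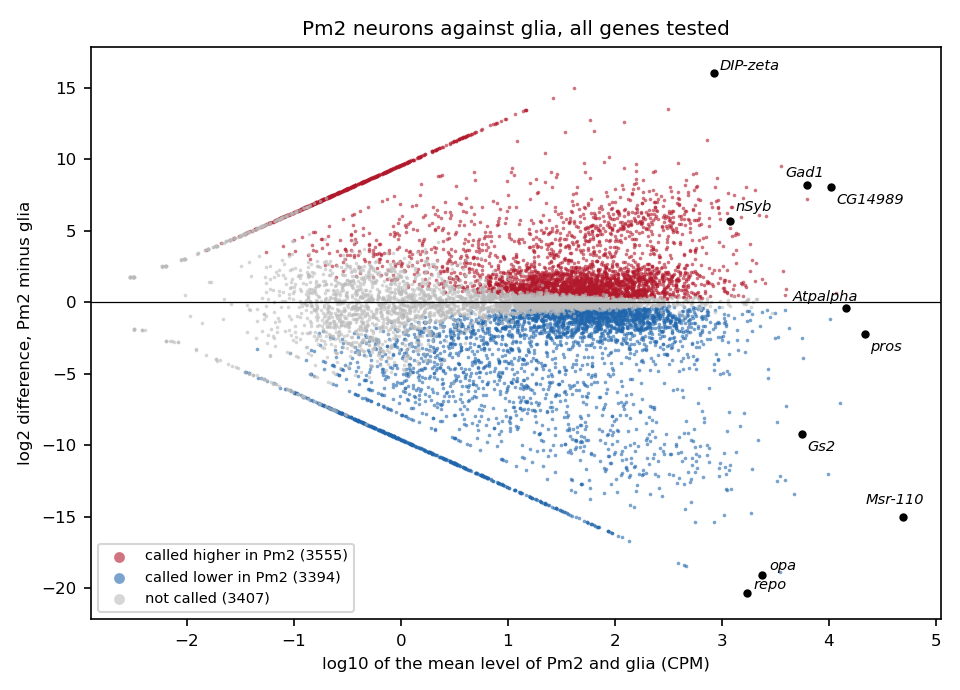
Each point is 1 of 10356 tested genes with a count in Pm2 or glia; the x axis is log10 of the mean of both levels in CPM and the y axis the log2 difference of Pm2 minus glia, coloured by the edgeR call. Gad1 and DIP-zeta lie far above 0 and repo, opa and Msr-110 far below, while Atpalpha lies close to 0 at a high level; the straight diagonal edges are genes with no count in 1 of the populations.

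Among genes with a mean of at least 100 counts in Pm2 and libraries that did not overlap, 12 were taken by the size of the fitted difference, whose order is not fixed by the data where a gene has few or no counts in glia. One of them was CG31708, now named DIP-zeta, a cell-surface immunoglobulin protein of the DIP family that binds Dpr proteins (FBgn0051708; 2L, 9051631 to 9071164). It had 1920, 1521 and 1577 CPM in Pm2, against 0.0741, 0 and 0 CPM in glia, which were 3 counts in all. The ratio of Pm2 over glia was 76124, with a 95% counting interval of 26048 to 369136 (edgeR adjusted p = 2.92e-07). Hs3st-B, a heparan sulfate sulfotransferase gene, had 82.9, 81.1 and 86.3 CPM in Pm2 and no count in glia. The muscarinic acetylcholine receptor gene mAChR-B had 659, 606 and 608 CPM in Pm2, against 0, 0 and 0.159 CPM in glia. Neto, an auxiliary subunit of kainate-type glutamate receptors, had 113, 117 and 120 CPM in Pm2, against 0, 0 and 0.0456 CPM in glia, or 2 counts. The other 8 were 4 long noncoding RNAs, CR45706, CR44187, CR45533 and CR44188, and the protein-coding genes CG13137, CG14128, CG12402 and CG3014. None of these 8 had a count in glia, and their means in Pm2 ran from 18.9 CPM for CG3014 to 52.8 CPM for CR45706.

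The 12 taken in the other direction by the same rule included repo, and their order is likewise not fixed. The zinc-finger transcription factor gene opa had 0, 0 and 0.0189 CPM in Pm2, which was 1 count, against 4936, 4892 and 4524 CPM in glia (edgeR adjusted p = 2.19e-10). CG15784 had 0, 0.0384 and 0 CPM in Pm2, against 4916, 8787 and 7230 CPM in glia. The laminin gene LanA had no count in Pm2 and 880, 1095 and 807 CPM in glia, and the ETS factor gene pnt no count in Pm2 and 984, 759 and 892 CPM in glia. LanA was at least 49932-fold lower in Pm2 and pnt at least 47312-fold lower. The others without a count in Pm2 were the repressor gene h, the leak potassium channel gene Ork1, the detoxification genes Cyp12e1, Cyp6a20 and Ugt86Dd, LM408 and the transporter gene MFS14, with means of 181 to 786 CPM in glia.

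Genes that took most counts differed as well. In Pm2 the gene with most counts was CG14989, whose function the files do not give, with 22464, 20180 and 20118 CPM, against 48, 57.5 and 131 CPM in glia (log2 8.05 ± 0.45 SE; edgeR adjusted p = 4.06e-08). Its gene model (3L, 4087581 to 4092706) overlaps the Gad1 model on the opposite strand, and their exons in the annotation used here share no bases. CG14989 averaged 45.3 CPM in T4 and 4256 CPM in all neurons, and Gad1 20.9 and 1698 CPM. Whether reads of the Gad1 locus were counted for CG14989 was not tested. IA-2, a protein of dense-core vesicles, had 12413 ± 590 CPM in Pm2 and 81.2 ± 6.72 CPM in glia, and the adaptor gene X11Lbeta 7145 ± 161 and 9.35 ± 4.68 CPM. In glia, Msr-110 took 6.43% to 9.14% of the counts. It had 4.57, 3.32 and 1.15 CPM in Pm2, against 112754, 71681 and 109046 CPM in glia (log2 -14.98 ± 0.61 SE; edgeR adjusted p = 3.15e-09). The stress-related transcription factor gene Xrp1 had 193 ± 14.6 CPM in Pm2 and 25418 ± 3666 CPM in glia, and CG9394 4.79 ± 2.23 and 19594 ± 1751 CPM. Some abundant genes were shared: Atpalpha, the catalytic subunit of the sodium pump, had 12488 ± 600 CPM in Pm2 and 16317 ± 2466 CPM in glia (log2 -0.39 ± 0.11 SE; edgeR adjusted p = 0.0084, and 0.263 with scaling by the library total). The homeodomain gene pros had 7839 ± 293 CPM in Pm2 and 35732 ± 8264 CPM in glia. The long noncoding RNA Hsromega had 14119 ± 1915 CPM in Pm2 and 9097 ± 534 CPM in glia.

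The 13 genes of GABA synthesis, release and recycling divided between the populations, with 5 higher in Pm2, 5 lower and 3 not called. VGAT, which loads GABA into vesicles, had 485, 490 and 507 CPM in Pm2, against 6.85, 0.0387 and 4.44 CPM in glia. Pm2 libraries were close together and far above the glia libraries (log2 7.05 ± 0.95 SE; edgeR adjusted p = 4.87e-05). Higher in Pm2 as well were the glutamine synthetase gene Gs1 and the chloride exporter gene kcc. Gs1 stood at 279 ± 12.4 CPM in Pm2 and 12.7 ± 1.83 CPM in glia, and kcc at 1363 ± 46.2 and 57.2 ± 3.93 CPM (log2 4.58 ± 0.14 SE; edgeR adjusted p = 4.15e-10).

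The uptake side was on the glial side of the comparison, apart from Eaat2. That amino acid transporter gene was not called, at 244 ± 6.76 CPM in Pm2 and 195 ± 75.7 CPM in glia. CG1732 (Gat), the plasma membrane GABA transporter gene, had 2.64, 1.48 and 0.585 CPM in Pm2, against 8039, 5764 and 7097 CPM in glia (log2 -12.11 ± 0.53 SE; edgeR adjusted p = 5.45e-09). Gs2, the other glutamine synthetase gene, had 20.7, 27.3 and 9.72 CPM in Pm2, against 12392, 9924 and 11370 CPM in glia (log2 -9.19 ± 0.41 SE; edgeR adjusted p = 6.35e-09). The glutamate transporter gene Eaat1 had 1.42 ± 0.851 CPM in Pm2 and 7801 ± 155 CPM in glia. Chloride handling was split in the same way: the chloride importer gene Ncc69 had 0.765 ± 0.183 CPM in Pm2 and 189 ± 82.7 CPM in glia, and the chloride channel gene ClC-a 0, 0.806 and 0.491 CPM in Pm2 and 473, 298 and 433 CPM in glia. ClC-c, an intracellular chloride transporter gene, passed the test narrowly, with libraries that overlapped (80.5 ± 2.62 CPM in Pm2, 121 ± 37.3 CPM in glia; edgeR adjusted p = 0.0442), and was not called under 10 of 16 alternatives.

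GABA breakdown did not divide in this way. CG7433 (Gabat), the GABA transaminase gene, had 675, 722 and 766 CPM in Pm2, against 867, 570 and 756 CPM in glia. The libraries overlapped, and the log2 difference was -0.02 ± 0.18 (SE; edgeR adjusted p = 0.939). Ssadh, the next enzyme of that route, had 345, 396 and 397 CPM in Pm2 and 372, 244 and 280 CPM in glia (edgeR adjusted p = 0.0732), and ClC-b was the third gene not called.

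**Figure D2:**
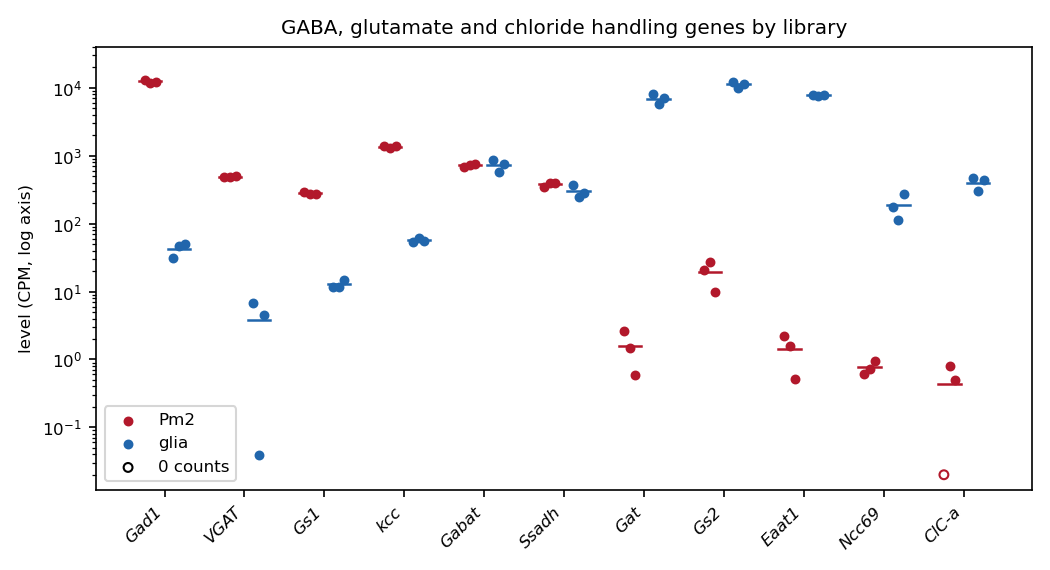
Points are the level in CPM (log axis) in each of 3 Pm2 and 3 glia libraries for genes of GABA, glutamate and chloride handling, with bars at the mean; an open circle marks a library with 0 counts, drawn at the bottom. From Gad1 to kcc all Pm2 points lie above all glia points, Gabat and Ssadh overlap, and from Gat to ClC-a all Pm2 points lie below.

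Genes for other transmitters were low in Pm2. Of 20 genes for synthesis and transport of other transmitters, 18 were tested, with 5 higher and 7 lower. They summed to 84.7 to 93.7 CPM in Pm2, against 2090 to 2376 CPM in glia, and most of the glia sum was e (ebony), whose enzyme joins beta-alanine to histamine and dopamine, at 0.242 ± 0.404 CPM in Pm2 and 2184 ± 167 CPM in glia. The vesicular glutamate transporter gene VGlut had 0.573 ± 0.276 CPM in Pm2 and 10.3 ± 6.95 CPM in glia, and the choline acetyltransferase gene Cha 20.7 ± 2.11 and 10.8 ± 4.85 CPM. Tyrosine hydroxylase (ple) stood at 14 ± 2.32 CPM in Pm2 and 1.36 ± 1.16 CPM in glia.

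Receptors for the transmitters that other neurons release were mostly higher in Pm2. Nicotinic acetylcholine receptors are cation channels that carry most fast excitation in the fly brain. Of 9 tested subunits out of 10, 7 were higher and 1 lower, with a median log2 difference of 5.94 against 0.00 over all tested genes. Subunit nAChRalpha7 had 4200, 3894 and 3999 CPM in Pm2, against 22.9, 19.7 and 10.2 CPM in glia (log2 7.84 ± 0.32 SE; edgeR adjusted p = 3.2e-09), and nAChRbeta1 had 1120 ± 26.1 and 10.1 ± 4.46 CPM. The exceptions were low in both: nAChRalpha6 had 0.911 ± 0.176 CPM in Pm2 and 15.5 ± 7.53 CPM in glia and was called lower, and nAChRalpha3, with means of 3.96 CPM in Pm2 and 2.95 CPM in glia, was not called. The muscarinic receptor gene mAChR-A averaged 555 ± 42.5 CPM in Pm2 and 5.22 ± 4.61 CPM in glia.

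Of 17 glutamate receptor genes 14 were tested, with 9 higher and 1 lower. The NMDA receptor subunit gene Nmdar2 had 1808, 1757 and 1909 CPM in Pm2, against 8.13, 14.6 and 15.7 CPM in glia, and its partner Nmdar1 195, 167 and 170 CPM in Pm2, against 0.173, 0.271 and 0 CPM in glia. Both genes were far higher in every Pm2 library (Nmdar2, log2 7.16 ± 0.26 SE, edgeR adjusted p = 1.28e-09). GluClalpha, a glutamate-gated chloride channel that mediates inhibition, averaged 2319 ± 204 CPM in Pm2 and 63.6 ± 33.8 CPM in glia. The kainate-type subunit gene CG3822 (KaiR1D) had 240 ± 8.14 CPM in Pm2 and 2.72 ± 1.11 CPM in glia. CG9935 (Ekar), of the same class, was the gene called lower, at 3.33 ± 0.649 CPM in Pm2 and 12.3 ± 1.08 CPM in glia.

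The 8 genes listed under GABA receptors divided 4 to 4. The ionotropic subunit gene Rdl had 602, 596 and 582 CPM in Pm2 and 30.6, 19.6 and 31.7 CPM in glia (log2 4.44 ± 0.19 SE; edgeR adjusted p = 3.98e-09). Lcch3, which shares 31.3% of its exon length with another gene, had 81.9 ± 1.8 CPM in Pm2 and 4.32 ± 4.01 CPM in glia. The metabotropic subunit genes GABA-B-R1 and GABA-B-R2, whose proteins form one receptor, averaged 119 ± 8.39 and 328 ± 16.1 CPM in Pm2, against 4.34 ± 2.74 and 11.6 ± 4.93 CPM in glia. The 4 called lower, CG8916, CG12344 (alka), Grd and GABA-B-R3, had means under 1 CPM in Pm2 and of 0.609 to 19.4 CPM in glia. The highest of these glia means was that of CG12344, and whether its product responds to GABA was not tested. For GABA-B-R3 the libraries of Pm2 and glia overlapped. CG8916, Grd and GABA-B-R3 averaged 3.6, 0.609 and 4.82 CPM in glia, against 237, 18.5 and 155 CPM in all neurons. CG12344 went the other way, with 0.781 CPM in all neurons.

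Of 22 receptor genes for amines, muscarinic signalling and histamine, 21 were tested, with 13 higher and 5 lower in Pm2. The serotonin receptor gene 5-HT1A had 332, 308 and 308 CPM in Pm2, against 0.568, 0.0967 and 0.547 CPM in glia. The octopamine receptor gene Oamb had 303 ± 2.81 CPM in Pm2 and 4.02 ± 2.25 CPM in glia, and DopEcR, a receptor for dopamine and ecdysone, 590 ± 32.3 and 14.5 ± 2.15 CPM. The dopamine receptors of the other classes were lower in Pm2. Dop1R1 had 0.0531, 0.326 and 0.698 CPM in Pm2, against 126, 51.2 and 113 CPM in glia (log2 -8.08 ± 0.60 SE, edgeR adjusted p = 4e-07). Dop2R and Dop1R2 were under 0.5 CPM in every Pm2 library and low in glia too, at 4.52 ± 1.82 and 1.57 ± 1.24 CPM. In all neurons Dop2R averaged 132 CPM, Dop1R2 23.9 CPM and Dop1R1 103 CPM.

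Voltage-gated and leak channels set the firing of neurons. Of 17 genes for sodium, calcium and HCN channels, 15 were higher in Pm2 and 2 lower, with a median log2 difference of 5.61. The HCN channel gene Ih had 3406, 3047 and 2988 CPM in Pm2, against 19.9, 21.7 and 18.8 CPM in glia (log2 7.29 ± 0.14 SE; edgeR adjusted p = 3.54e-11). Ca-alpha1D, the L-type calcium channel gene, had 1271, 1227 and 1220 CPM in Pm2 and 8.18, 9.77 and 7.84 CPM in glia. The libraries of each population were close together for both genes. The sodium channel gene para averaged 2466 ± 96.6 CPM in Pm2 and 23.8 ± 6.04 CPM in glia. NaCP60E stood at 1034 ± 5.73 and 89 ± 3 CPM. The sodium leak channel gene na had 659 ± 48.2 CPM in Pm2 and 2.36 ± 3.44 CPM in glia, and unc80, an auxiliary protein of that channel, 1093 ± 139 and 4.68 ± 2.36 CPM. The T-type calcium channel gene Ca-alpha1T was lower in Pm2, at 3.51 ± 0.516 CPM, against 16.5 ± 5.14 CPM in glia. Mid1 was lower as well, at 6.46 ± 1.46 CPM in Pm2 and 10.7 ± 1.81 CPM in glia, and lost its call under 2 of 16 alternatives. Both genes were far higher in the other neurons. Ca-alpha1T averaged 791 CPM in T4 and 1508 CPM in all neurons, and Mid1 593 and 504 CPM.

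Potassium channel genes lay on both sides. Of 21 genes 20 were tested, with 13 higher in Pm2 and 6 lower. The voltage-gated channel gene Shab had 2330, 2107 and 2314 CPM in Pm2, against 15.8, 7.76 and 10.1 CPM in glia (log2 7.65 ± 0.27 SE; edgeR adjusted p = 1.06e-09). The calcium-activated channel gene slo averaged 985 ± 70.6 CPM in Pm2 and 20.8 ± 3.79 CPM in glia, and the background channel gene Task6 175 ± 16.2 and 1.5 ± 0.428 CPM. All 3 inward rectifier genes were lower in Pm2: Irk2 had 0, 0.345 and 0 CPM in Pm2, against 614, 274 and 529 CPM in glia, Irk3 averaged 0.315 ± 0.0832 and 330 ± 20.9 CPM, and Irk1 0.0378 and 7.05 CPM. Ork1, a leak channel gene, had no count in Pm2 and 420, 97.7 and 298 CPM in glia, at least 14630-fold lower in Pm2. KCNQ, which shares 27.4% of its exon length with another gene, had 45.8 ± 2.01 CPM in Pm2 and 167 ± 17 CPM in glia.

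Genes of transmitter release were higher in Pm2 nearly throughout. Of 27 genes, 25 were higher and 0 lower, with a median log2 difference of 3.66. Synaptic vesicle fusion uses nSyb, which had 2429, 2271 and 2348 CPM in Pm2 and 49.8, 46.2 and 41.3 CPM in glia (log2 5.68 ± 0.11 SE; edgeR adjusted p = 3.54e-11). The fusion clamp gene cpx averaged 5053 ± 595 CPM in Pm2 and 76.9 ± 12.6 CPM in glia, and shi, the dynamin that cuts vesicles from the membrane, 2490 ± 42.2 and 197 ± 7.34 CPM. Liprin-alpha, at means of 53.7 CPM in Pm2 and 61.2 CPM in glia, and Rph were not called. Of 8 synaptotagmin genes, which encode calcium sensors and their relatives, 6 were higher in Pm2 and 1 lower. Syt1 had 1881 ± 273 CPM in Pm2 and 33.8 ± 12.6 CPM in glia, and Syt12 358 ± 35.4 and 2.92 ± 2.8 CPM. Esyt2, which encodes a tether between endoplasmic reticulum and plasma membrane, went the other way, with 2.82 ± 1.28 CPM in Pm2 and 63.7 ± 22.3 CPM in glia.

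Of 38 neuropeptide and peptide processing genes, 30 were tested, with 11 higher and 5 lower. The neuropeptide precursor gene Nplp1 had 1861, 1827 and 1537 CPM in Pm2, against 13.5, 15 and 9.82 CPM in glia (log2 7.09 ± 0.26 SE; edgeR adjusted p = 1.5e-09). Dh44, a diuretic hormone of the corticotropin-releasing factor family, had 181, 172 and 170 CPM in Pm2 and 2.87, 0 and 5.13 CPM in glia, and the proctolin gene Proc 121, 126 and 136 CPM in Pm2 and 0, 3.71 and 1.75 CPM in glia. The libraries of each group did not overlap for any of the 3. Enzymes and helpers of peptide maturation were high too: amon, a prohormone convertase, had 638 ± 22.5 CPM in Pm2 and 8.3 ± 6.43 CPM in glia, and its helper gene 7B2 1564 ± 68.4 and 12.4 ± 4.77 CPM. ITP, sNPF, Tk and CCHa1 were lower in Pm2, with at most 8.17 ± 2.73 CPM in Pm2 (ITP) and 53.8 ± 7.27 CPM in glia for that gene. In glia sNPF, Tk and CCHa1 averaged 11.8, 9.21 and 3.28 CPM, against 906, 637 and 20.4 CPM in all neurons. ITP averaged 1.68 CPM in all neurons.

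Peptide receptors showed no common direction, with 9 higher and 9 lower of 32 tested out of 36. In Pm2 the cholecystokinin-like receptor gene CCKLR-17D3 had 447, 433 and 485 CPM, against 2.77, 2.48 and 0.684 CPM in glia. The neuropeptide F receptor gene NPFR had 157 ± 3.59 CPM in Pm2 and 0.162 ± 0.175 CPM in glia, SIFaR 103 ± 7.85 and 0.11 ± 0.0995 CPM, and Dh31-R 239 ± 13 and 1.01 ± 1.28 CPM. Proctolin and its receptor lay on opposite sides. Proc-R had no count in Pm2 and 136, 45.1 and 129 CPM in glia, at least 5561-fold lower in Pm2 (edgeR adjusted p = 2.38e-05). The insulin receptor gene InR stood at 33 ± 5.93 CPM in Pm2 and 248 ± 13 CPM in glia.

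Cell-surface recognition genes were next. Of 32 dpr and DIP genes, whose proteins bind each other across synaptic partners, 11 were higher in Pm2 and 9 lower, shares close to those over all tested genes. Besides DIP-zeta, dpr7 had 308 ± 38.6 CPM in Pm2 and 9.46 ± 1.26 CPM in glia, dpr18 259 ± 18.8 and 4.99 ± 2.74 CPM, and CG42596 (dpr21) 318 ± 13 and 3.5 ± 2.22 CPM. The gene dpr10 was high in glia instead, with 0.461, 0.672 and 0.283 CPM in Pm2, against 142, 100 and 94.6 CPM in glia (log2 -7.89 ± 0.29 SE; edgeR adjusted p = 1.6e-09). Of 21 beat and side genes, another family pair of binding partners, 13 were higher and 4 lower. Here beat-IIIb had 445, 413 and 408 CPM in Pm2 and 2.72, 2.67 and 2.96 CPM in glia (log2 7.24 ± 0.13 SE; edgeR adjusted p = 3.54e-11), and beat-IIa averaged 1064 ± 24.3 and 2.17 ± 1.76 CPM. CG12484 (side-VIII) had 0.771 ± 0.593 CPM in Pm2 and 745 ± 215 CPM in glia.

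Other adhesion genes also divided, 22 higher and 16 lower of 42 tested out of 43. Dscam genes encode immunoglobulin receptors through which branches recognise each other. Dscam1 had 135, 132 and 135 CPM in Pm2, against 5595, 3869 and 6467 CPM in glia, while Dscam2 had 1026, 1124 and 1020 CPM in Pm2 and 15.7, 9.58 and 9.77 CPM in glia. The libraries did not overlap for either gene, and the directions were opposite (Dscam1, log2 -5.31 ± 0.27 SE, edgeR adjusted p = 1.8e-08; Dscam2, log2 6.50 ± 0.24 SE, edgeR adjusted p = 1.35e-09). Dscam4 lay with Dscam2, at 1232 ± 71 CPM in Pm2 and 84.2 ± 21.8 CPM in glia. The cell adhesion gene rst had 246 ± 14 CPM in Pm2 and 0.351 ± 0.282 CPM in glia. The synaptic organiser genes Nrx-1 and Nlg2, whose proteins bind across the synapse, averaged 882 ± 36.1 and 166 ± 10.5 CPM in Pm2, against 20.9 ± 6.64 and 3.91 ± 1.05 CPM in glia. Toll-like receptor 18w had 1.47 ± 0.909 CPM in Pm2 and 143 ± 32.4 CPM in glia. Of 20 axon guidance genes 12 were higher and 4 lower, and robo3, a Slit receptor gene, had 936, 920 and 903 CPM in Pm2 and 0, 1.64 and 5.6 CPM in glia (log2 8.57 ± 0.99 SE; edgeR adjusted p = 1.47e-05).

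**Figure D3:**
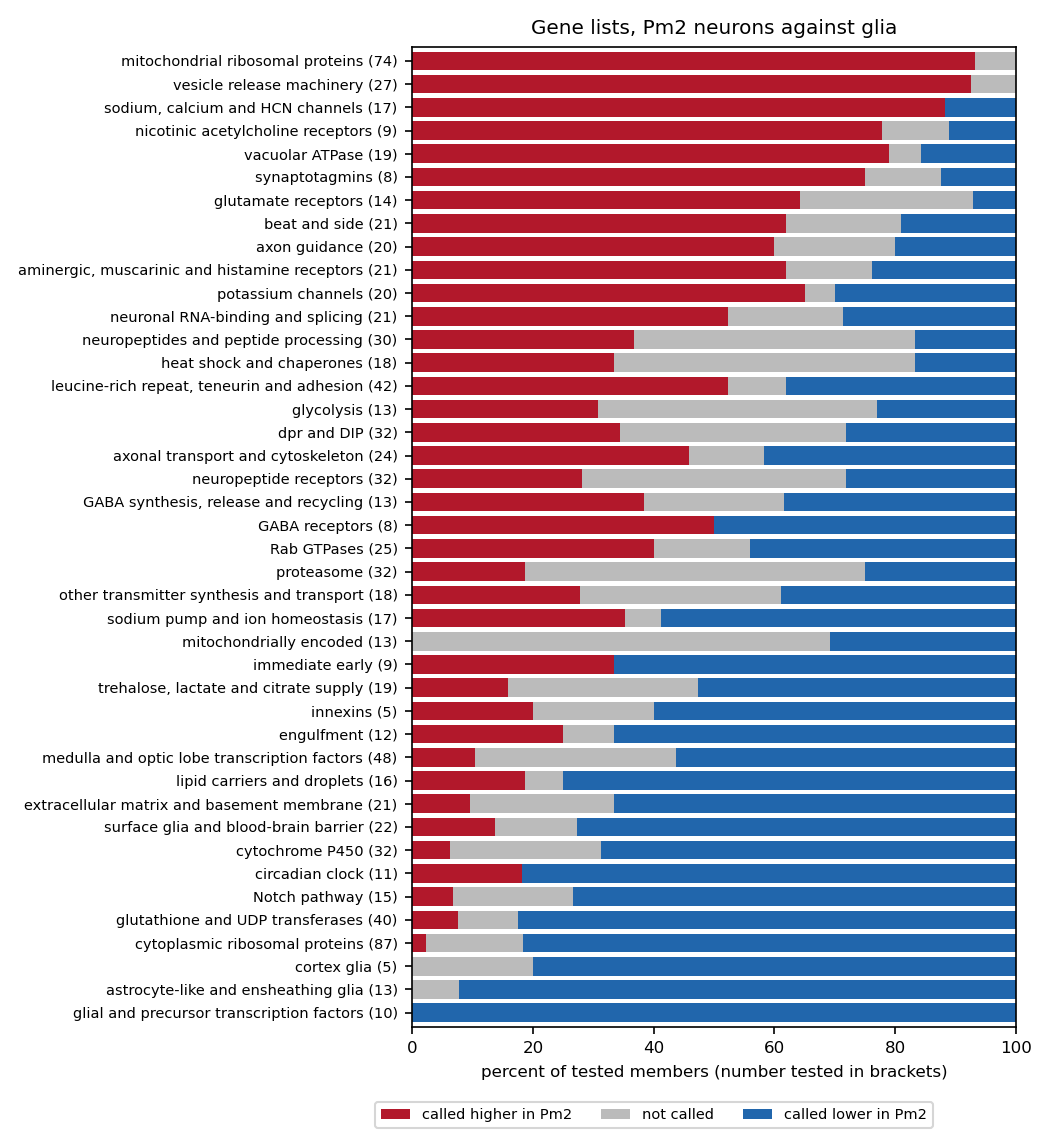
Bars give, for each gene list drawn, the percent of its tested members called higher, not called and called lower in Pm2 by edgeR. The number tested is in brackets, and lists are ordered by the excess of higher over lower calls. The pan-neuronal, pan-glial, related-pair, sex-linked regulation, ciliary motor and other-cell-type marker lists are not drawn. Mitochondrial ribosomal proteins (69 of 74 higher) and vesicle release genes (25 of 27 higher) stand at the top of the lists drawn and glial transcription factors (10 of 10 lower) at the bottom, against a background of 33.8% higher and 32.2% lower.

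Few of the transcription factor genes that mark optic lobe cell types were higher in Pm2. Of 54 such genes 48 were tested, with 5 higher and 27 lower. A lower call sets glia above Pm2 and does not by itself mean a high level in glia. Of the 54 genes, 17 had no count in Pm2 and 9 had none in glia. Among the lower genes, Eip93F had 19.2 ± 1.27 CPM in Pm2 and 329 ± 29.1 CPM in glia, and averaged 370 CPM in all neurons. The LIM-homeodomain gene Lim3 had 206, 196 and 192 CPM in Pm2, against 0.198, 2.09 and 0.0228 CPM in glia (log2 7.94 ± 0.90 SE; edgeR adjusted p = 1.23e-05). The nuclear receptor gene svp had 299, 284 and 323 CPM in Pm2, against 2.87, 0.0193 and 0.205 CPM in glia, and TfAP-2 had 296, 296 and 290 CPM in Pm2, against 1.16, 0.387 and 2.05 CPM in glia. These 3 were high in every Pm2 library; the other 2 called higher, bab1 and Awh, had means of 3.18 and 0.119 CPM in Pm2, against 1.96 and 0 CPM in glia, and bab1 was not called under 7 of 16 alternatives. The homeodomain gene hth, with means of 796 CPM in Pm2 and 652 CPM in glia, was not called (edgeR adjusted p = 0.0637).

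Transcription factor genes listed for glia and precursors were lower in Pm2. This held for all 10 tested of 14. Besides opa, pnt and repo, the POU-domain gene pdm3 had 1.19, 0.269 and 0.34 CPM in Pm2, against 961, 676 and 876 CPM in glia. The zinc-finger homeodomain genes zfh1 and zfh2 had 0.415 ± 0.374 and 9.12 ± 1.04 CPM in Pm2, against 1886 ± 238 and 1189 ± 214 CPM in glia. The repressor gene ttk had 0.0354 ± 0.0614 CPM in Pm2 and 430 ± 73.7 CPM in glia, and ken 0.196 and 1039 CPM. The regulators ct and pros were shared in kind but not in level: ct had 361, 327 and 341 CPM in Pm2, against 1825, 1481 and 1857 CPM in glia.

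Notch signalling genes were mostly lower in Pm2 like the glial regulators, with 1 higher and 11 lower of 15 tested out of 21. The list still summed to 538 to 573 CPM in Pm2, against 1317 to 1439 CPM in glia. Members given below make up a small part of the Pm2 sum. The receptor gene N had 1.63, 0.806 and 0.604 CPM in Pm2, against 278, 264 and 283 CPM in glia (log2 -8.07 ± 0.47 SE; edgeR adjusted p = 5.39e-08), and fng, which modifies the receptor with sugar, 0.0635 ± 0.095 and 275 ± 38.1 CPM. The pathway target gene E(spl)mbeta-HLH had no count in Pm2 and 28.3, 34.1 and 25.9 CPM in glia. The 1 member called higher was numb, which encodes an inhibitor of the pathway, with 49 ± 12.3 CPM in Pm2 and 2.76 ± 3.25 CPM in glia.

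Clock genes were lower in Pm2 in 9 of 11 cases. The clock repressor gene per had 32.3, 24.8 and 24.9 CPM in Pm2, against 780, 647 and 892 CPM in glia (log2 -4.82 ± 0.18 SE; edgeR adjusted p = 1.41e-09), and its partner tim had 0, 0.863 and 0 CPM in Pm2, against 1475, 1071 and 1467 CPM in glia. The activator gene Clk had 0, 0 and 0.0566 CPM in Pm2, or 3 counts, against 135, 73.7 and 138 CPM in glia, and the light sensor gene cry had no count in Pm2 and 185, 91 and 146 CPM in glia. Both members called higher lie at the edge of the list: the kinase gene sgg had 835 ± 58.5 CPM in Pm2 and 193 ± 45.1 CPM in glia, and the peptide receptor gene Pdfr 16.1 ± 5.47 and 4.89 ± 2.79 CPM. The time of day of dissection is not given in the labels.

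Immediate early genes, which neurons and other cells switch on after activity or stress, split into sets. Of 9 genes 3 were higher in Pm2 and 6 lower. The nuclear receptor gene Hr38 had 507, 388 and 386 CPM in Pm2, against 8.35, 6.85 and 11.4 CPM in glia, and CG14186 had 736, 536 and 590 CPM in Pm2, against 10.6, 11.7 and 7.7 CPM in glia. The Fos gene kay had 73.3, 51.2 and 69.3 CPM in Pm2, against 458, 481 and 552 CPM in glia. The capsid-like gene Arc1 had 12.5, 12 and 9.16 CPM in Pm2, against 523, 1106 and 638 CPM in glia (log2 -6.08 ± 0.41 SE; edgeR adjusted p = 1.88e-07).

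Genes of the glial classes were measured next. Of 13 genes of astrocyte-like and ensheathing glia, 0 were higher and 12 lower in Pm2. The leucine-rich repeat gene alrm had 1.14 ± 0.888 CPM in Pm2 and 6551 ± 296 CPM in glia, and wun2, a lipid phosphatase gene, 0.234 ± 0.0381 and 456 ± 85.1 CPM. Eaat2, an amino acid transporter gene, was the 1 not called, at 244 ± 6.76 CPM in Pm2 and 195 ± 75.7 CPM in glia. For cortex glia, which wrap neuronal cell bodies, 4 of 5 tested genes out of 6 were lower, and the calcium exchanger gene zyd had 0, 0.173 and 0.0189 CPM in Pm2, against 619, 459 and 485 CPM in glia. Of 24 genes of surface glia and the blood-brain barrier 22 were tested, with 3 higher and 16 lower. The barrier receptor gene moody had 4.02 ± 0.954 CPM in Pm2 and 229 ± 36.6 CPM in glia. The 3 called higher, Nrx-IV, vari and Mcr, are genes of septate junctions and their relatives, and Nrx-IV had 139 ± 2.72 CPM in Pm2 and 101 ± 3.22 CPM in glia. Mcr was not called under 7 of 16 alternatives.

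The called gap junction genes of the innexin family differed widely between the populations. Of 8 genes 5 were tested, with 1 higher in Pm2, 3 lower and 1 not called. The gene shakB, which forms electrical synapses, had 516, 431 and 384 CPM in Pm2, against 4.94, 15 and 4.44 CPM in glia (log2 5.77 ± 0.45 SE; edgeR adjusted p = 6.1e-07). Its relative ogre had 0.744, 0.326 and 0.0566 CPM in Pm2, against 1105, 559 and 860 CPM in glia, Inx2 averaged 1.3 ± 0.63 and 1021 ± 270 CPM, and Inx3 1.68 ± 1.49 and 342 ± 43.2 CPM.

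Matrix genes were mostly on the glial side, with 2 higher and 14 lower of 21. The perlecan gene trol had 0.877 ± 0.624 CPM in Pm2 and 1448 ± 391 CPM in glia, the type IV collagen gene vkg 4.08 ± 2.24 and 1347 ± 548 CPM, and the protease gene Mmp1 0.0502 ± 0.059 and 164 ± 37.9 CPM. A different collagen stood out in Pm2. Mp, a collagen gene of the type XV and XVIII class, had 1201, 1132 and 1141 CPM in Pm2, against 5.41, 5.3 and 1.64 CPM in glia (log2 8.13 ± 0.41 SE; edgeR adjusted p = 1.74e-08). The cell-surface proteoglycan gene Sdc was the other one higher, at 659 ± 29.5 CPM in Pm2 and 207 ± 11.2 CPM in glia.

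Of 12 engulfment genes, 3 were higher and 8 lower in Pm2. The adaptor gene ced-6 had 0.0177, 0 and 0.227 CPM in Pm2, against 370, 307 and 405 CPM in glia, and mbc, which activates Rac, 14.7, 14.9 and 14.5 CPM in Pm2, against 3627, 2281 and 3639 CPM in glia. The receptor gene drpr, by contrast, differed by a log2 value of -0.94 ± 0.11 (SE; edgeR adjusted p = 2.11e-05).

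Fuel genes lay on both sides. Of 19 genes for trehalose, lactate and citrate supply, 3 were higher in Pm2 and 10 lower. Trehalase (Treh), which splits the blood sugar of insects, had 46.1, 51.9 and 55 CPM in Pm2, against 8254, 6584 and 8809 CPM in glia (log2 -7.27 ± 0.17 SE; edgeR adjusted p = 1.16e-10). The trehalose transporter gene Tret1-1 had 30.2 ± 10.5 CPM in Pm2 and 608 ± 123 CPM in glia, and lactate dehydrogenase (ImpL3) 2.68 ± 1.03 and 438 ± 172 CPM. The solute carrier genes CG6723 (bumpel) and CG42235 (kumpel) were below 1 CPM in every Pm2 library and averaged 1182 ± 181 and 253 ± 52.1 CPM in glia. On the other side, the glucose transporter gene Glut1 had 752, 812 and 822 CPM in Pm2, against 6.45, 5.82 and 3.49 CPM in glia (log2 7.24 ± 0.24 SE; edgeR adjusted p = 6.85e-10). The monocarboxylate transporter gene Sln had 287, 276 and 311 CPM in Pm2, against 0, 3.12 and 1.44 CPM in glia, and CG13907 75 ± 5.84 and 21.4 ± 9.71 CPM.

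Most genes of glycolysis and its end step differed little, with 1 large exception. Of 13 genes 4 were higher and 3 lower, with a median log2 difference of 0.01; with scaling by the library total 7 were higher and 2 lower, and with median-of-ratios scaling 1 and 5. The exception was ImpL3, lactate dehydrogenase, given above, with a log2 difference of -7.35 ± 0.71 (SE; adjusted p = 3.11e-06, edgeR), while the other 6 called members lay between -1.11 and 0.66. Gapdh2 had 1960, 1964 and 1967 CPM in Pm2, against 2031, 1937 and 1876 CPM in glia, and the libraries overlapped (edgeR adjusted p = 0.936). Hexokinase (Hex-A) had 340 ± 9.57 CPM in Pm2 and 736 ± 30.4 CPM in glia. Pglym78 had 712 ± 36.2 CPM in Pm2 and 451 ± 6.33 CPM in glia.

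Lipid genes had 3 higher and 12 lower of 16. The lipocalins, carriers of small lipids, were divided: NLaz had 1273, 1361 and 1216 CPM in Pm2, against 46.6, 87.2 and 39.5 CPM in glia, while GLaz had 0.993 ± 0.371 CPM in Pm2 and 156 ± 37.8 CPM in glia (NLaz, log2 4.47 ± 0.30 SE, edgeR adjusted p = 1.85e-07). The lipoprotein receptor gene LpR1 had 1255, 1154 and 1124 CPM in Pm2, against 4.52, 3.19 and 16 CPM in glia, and LpR2 134 ± 9.48 and 67.2 ± 16.9 CPM. The lipid droplet gene Lsd-2 averaged 3.23 ± 1.44 CPM in Pm2 and 356 ± 91.8 CPM in glia, and the sterol carrier gene Npc2a 0.427 ± 0.229 and 209 ± 43.9 CPM.

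Detoxification genes were lower in Pm2 in most cases. Of 43 cytochrome P450 genes 32 were tested, with 2 higher and 22 lower, and their summed level was 34.8 to 49.6 CPM in Pm2 and 3773 to 4342 CPM in glia. Cyp4g15 had 1.28, 1.02 and 0.132 CPM in Pm2, against 2002, 1909 and 1866 CPM in glia. The P450 genes called higher were Cyp49a1 and Cyp18a1, which breaks down ecdysone; Cyp18a1 had 3.74, 3.13 and 3.34 CPM in Pm2 and no count in glia, at least 154-fold higher in Pm2 (edgeR adjusted p = 0.000397). Of 52 glutathione and UDP transferase genes 40 were tested, with 3 higher and 33 lower, and they summed to 187 to 202 CPM in Pm2 and 6868 to 8920 CPM in glia. GstE1 had 0.195, 0.345 and 0.34 CPM in Pm2, against 1970, 3118 and 2243 CPM in glia (log2 -13.02 ± 0.33 SE; edgeR adjusted p = 1.55e-10). GstZ2, GstE13 and GstO2 were higher, with GstE13 at 76.3 ± 9.77 CPM in Pm2 and 17 ± 2.29 CPM in glia. Members of these families lie in clusters of similar genes, so the split of reads between neighbours is uncertain.

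Ribosomal protein genes went opposite ways by compartment. Cytoplasmic ribosomes make most cell proteins, and mitochondrial ribosomes make the few proteins encoded in mitochondrial DNA. Of 92 cytoplasmic ribosomal protein genes 87 were tested, with 2 higher and 71 lower in Pm2, a median log2 difference of -1.07 and sums of 11235 to 11332 CPM in Pm2 and 17284 to 30730 CPM in glia. All 74 mitochondrial ribosomal protein genes were tested, with 69 higher and 0 lower, a median log2 difference of 1.65 and sums of 3660 to 4123 CPM in Pm2 and 1274 to 1488 CPM in glia. With scaling by the library total the medians were -0.83 and 1.90, and with median-of-ratios scaling -1.21 and 1.51, where 2 mitochondrial members were lower.

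Single members show the size of these differences. RpLP1 had 109, 109 and 111 CPM in Pm2, against 339, 618 and 382 CPM in glia (log2 -2.03 ± 0.21 SE; edgeR adjusted p = 5.56e-06). RpL22 differed most among those called lower, with 44.9 ± 2.7 CPM in Pm2 and 535 ± 83.2 CPM in glia, and shares 34.3% of its exon length with another gene. The members called higher, RpS10a and RpS28a, are low-level copies with 1.21 ± 0.398 and 0.272 ± 0.0836 CPM in Pm2, and RpS10a was not called under 8 of 16 alternatives. Glia replicate 2 was the highest glia library for both RpLP1 and RpL22. On the mitochondrial side, mRpS18A had 117 CPM in each Pm2 library, against 7.34, 12.1 and 12 CPM in glia (log2 3.47 ± 0.19 SE; edgeR adjusted p = 3.83e-08), and mRpL10 72.8 ± 3.66 and 11 ± 1.7 CPM.

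Other mitochondrial and stress genes were uneven. The mitochondrial chaperone gene Hsp60 had 1381, 1504 and 1549 CPM in Pm2, against 374, 527 and 446 CPM in glia, and Hsc70-5 434, 468 and 478 CPM in Pm2, against 155, 223 and 165 CPM in glia. The cytosolic chaperone genes Hsp83 and Hsc70-4 and the endoplasmic reticulum chaperone gene Hsc70-3 were lower in Pm2, at 3160 ± 120, 2299 ± 56.5 and 506 ± 42 CPM, against 4537 ± 380, 3927 ± 863 and 1326 ± 112 CPM in glia. Of the 13 messenger RNAs encoded in mitochondrial DNA, 0 were higher and 4 lower. For mt:CoIII the values were 1617, 858 and 798 CPM in Pm2 and 2291, 2706 and 2672 CPM in glia. Pm2 replicate 1 was the highest Pm2 library for the 4 genes called. Under scaling by the library total 2 of these 13 were lower and under median-of-ratios scaling 6.

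The proton pump of vesicles and other acid compartments was higher in Pm2 in most subunits, 15 of 19 tested out of 20, with 3 lower. Vha55 had 1737, 1839 and 1978 CPM in Pm2, against 393, 369 and 420 CPM in glia (log2 2.23 ± 0.09 SE; edgeR adjusted p = 2.96e-09), and VhaM9.7-a 323 ± 22.2 and 4.93 ± 1.51 CPM. The 3 lower subunits, Vha68-2, Vha100-2 and VhaM9.7-c, have relatives that were higher. Vha68-1 had 1301, 1249 and 1341 CPM in Pm2 and 114, 123 and 113 CPM in glia, while Vha68-2 had 0.655, 0.249 and 0 CPM in Pm2 and 188, 209 and 168 CPM in glia. The proteasome, which degrades proteins, had 6 higher and 8 lower of 32 tested out of 41, with a median log2 difference of -0.03, and these counts were 8 and 1 under scaling by the library total and 3 and 11 under median-of-ratios scaling.

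**Figure D4:**
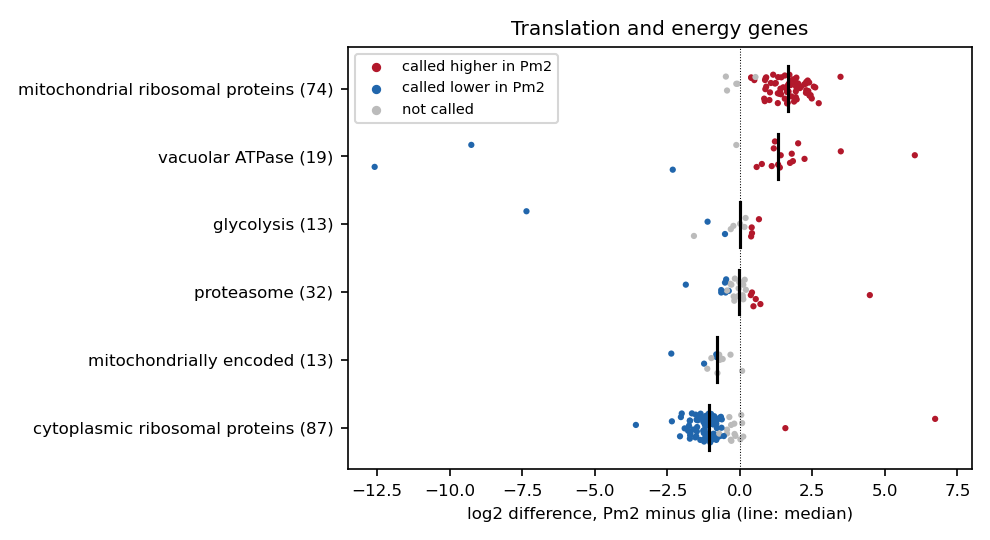
Each point is the log2 difference of Pm2 minus glia for 1 tested gene of 6 lists (number of genes in brackets), coloured by the edgeR call, with a line at each median. Mitochondrial ribosomal protein genes lie to the right of 0 (median 1.65) and cytoplasmic ones to the left (median -1.07), while glycolysis and proteasome genes are centred near 0.

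Several pairs of related genes were split between the populations. Of 20 pairs with both members tested, 8 had 1 member called higher and the other lower in Pm2. Levels in this paragraph are CPM per kilobase of exon, so that members can be compared. The beta subunits of the sodium pump were among them: nrv3 stood at 920 in Pm2 and 13.2 in glia, and nrv2 at 5.45 in Pm2 and 1812 in glia. For the fusion proteins of vesicles, nSyb stood at 577 in Pm2 and 11.2 in glia, and Syb, the general form, at 10.6 and 92. Snap25 stood at 651 in Pm2 and 10.7 in glia, and Snap24 at 24.4 and 60.1. The glutamine synthetases Gs1 and Gs2 stood at 116 and 8.63 in Pm2, against 5.31 and 5033 in glia.

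In other pairs 1 member was dominant in both populations. Gapdh2 stood at 1361 per kilobase in Pm2 and 1350 in glia, and Gapdh1 at 404 in Pm2 and 576 in glia. The actin gene Act5C stood at 373 in Pm2 and 1157 in glia, against 27.8 and 13.1 for Act42A, although the directions of the pair were opposite. Both tubulin genes of the alphaTub84B and alphaTub84D pair were higher in Pm2, at 895 and 122 per kilobase, against 307 and 44 in glia.

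**Figure D5:**
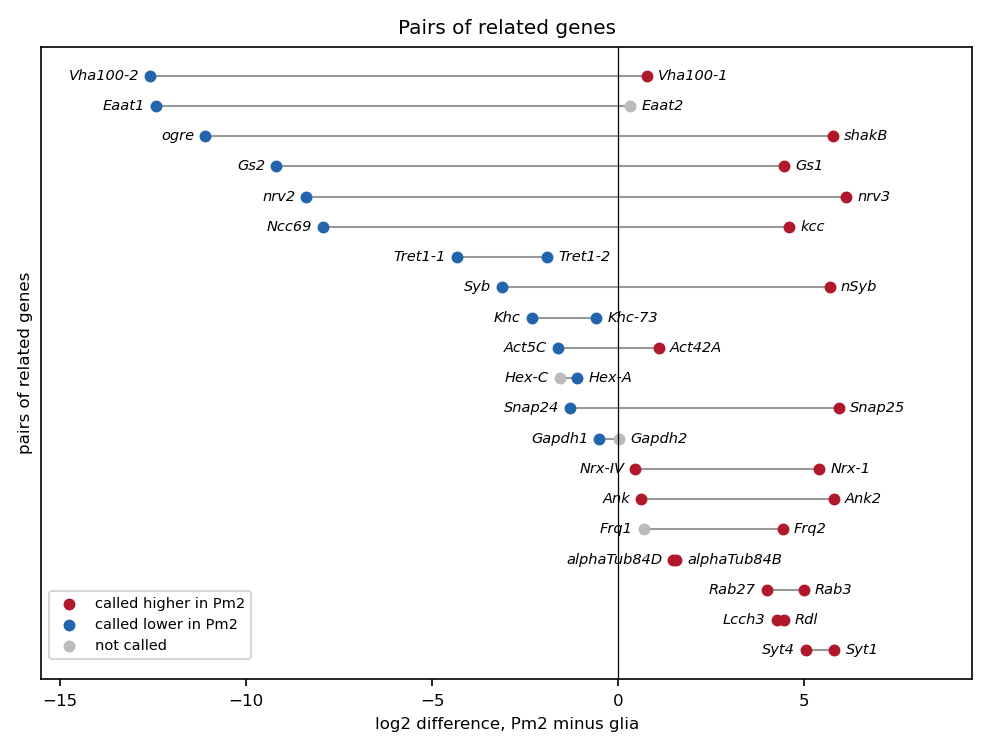
Each line joins the 2 members of a pair of related genes at their log2 differences of Pm2 minus glia, coloured by the edgeR call. Pairs such as nrv2 and nrv3, Gs2 and Gs1 and ogre and shakB span 0 with calls on both sides, while Syt1 and Syt4 or Rdl and Lcch3 lie on the same side.

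Transport and RNA-binding genes were mixed. Of 24 genes for axonal transport and the cytoskeleton, 11 were higher and 10 lower. The synaptic vesicle kinesin gene unc-104 had 2447, 2307 and 2406 CPM in Pm2, against 97, 89.3 and 97.5 CPM in glia (log2 4.66 ± 0.13 SE; edgeR adjusted p = 2.58e-10), whereas the conventional kinesin gene Khc had 140 ± 4.88 CPM in Pm2 and 707 ± 40.2 CPM in glia. The giant ankyrin gene Ank2 had 1187 ± 33.5 CPM in Pm2 and 21.5 ± 1.8 CPM in glia. Of 21 tested RNA-binding and splicing genes out of 22, 11 were higher and 6 lower. The RNA-binding protein gene mub had 2745 ± 272 CPM in Pm2 and 99.7 ± 9.09 CPM in glia, and fne, a relative of elav, 1211 ± 168 and 20.6 ± 4.31 CPM. The translational repressor gene pum was lower, at 569 ± 68.3 CPM in Pm2 and 1625 ± 87.3 CPM in glia. Of 25 tested Rab genes out of 31, 10 were higher and 11 lower. Rab3 and Rab26, linked to synaptic vesicles, had 730 ± 70.8 and 168 ± 5.2 CPM in Pm2, against 23.1 ± 2.84 and 3.38 ± 1.95 CPM in glia.

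Some genes that separated Pm2 from glia also differed from T4 neurons and from all neurons in the same fit. DIP-zeta (CG31708), at 1673 CPM in Pm2, averaged 2.37 CPM in T4 (log2 9.45, Pm2 minus T4; edgeR adjusted p = 5.49e-06) and 64.4 CPM in all neurons (log2 4.70; edgeR adjusted p = 0.000238). NLaz, at 1284 CPM in Pm2, averaged 12.2 CPM in T4 and 61.4 CPM in all neurons (edgeR adjusted p = 7.21e-08 and 1.08e-06). Nmdar2, at 1825 CPM in Pm2, averaged 128 CPM in T4 and 281 CPM in all neurons (edgeR adjusted p = 2e-07 and 2.76e-06). The pros level in Pm2, 7839 CPM, lay above 187 CPM in T4 and 1046 CPM in all neurons (edgeR adjusted p = 2.07e-08 and 1.26e-06) but below glia. Other genes did not set Pm2 apart from T4: kcc averaged 1306 CPM in T4 (edgeR adjusted p = 0.744) and Glut1 758 CPM (edgeR adjusted p = 0.82). Rdl was higher in Pm2 than in glia and lower than in T4, at 593 CPM in Pm2 and 1556 CPM in T4 (edgeR adjusted p = 6.23e-05).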

How the data were processed

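RNA from 12 libraries of sorted fly optic lobe cells was used, 3 each of Pm2, T4, neurons and glia. The submitters' processing notes name Trimmomatic 0.32, STAR 2.5.2, HTSeq 0.6.1 and the BDGP6 build; roles, settings and strand use are not given in the sources used here. The authors deposited one table of whole-number counts, with 16272 gene names. It is called normalized, no header says how, and its counts were analysed as they stand. Coordinates and current symbols came from the Ensembl annotation of BDGP6, with 11996 names matched to a symbol, 4085 to a synonym and 191 to none. Of the tested genes, 846 of 10411 with a gene model share over 20% of their exon length with another gene.

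The 10528 genes that reached 10 counts in 3 or more of 12 libraries were scaled (trimmed mean of M values) and tested with edgeR 4.0.16 in R 4.3.3, by the two-sided quasi-likelihood F test on a mean for each of the 4 populations. A gene was called where its Benjamini-Hochberg adjusted p was below 0.05. The fit code was run on simulated data with far fewer and smaller differences than found here. That run does not test the scaling, or genes absent from 1 population, in this comparison. Standard errors came from the difference and its F value, and intervals of ratios are exact 95% counting intervals. Alternatives were run with DESeq2 1.42.0, limma 3.58.1 and other settings, given at the end.

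The comparison and the 53 gene lists were chosen with earlier results of these data known; some genes are in several lists. Genes were named by a rule: 12 called genes per direction with the largest difference, a mean of 100 counts in the higher group and no overlap; the 10 with most counts in each population; up to 4 called members per list and direction by adjusted p; the GABA genes, related pairs and members called against their list. Other list members in the text were chosen after their values were seen. Promoter sequences were not analysed here, and the values of some list members are not reported here.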

Additional observations from a re-analysis of the deposited data

How the results depend on the processing

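The counts of genes higher and lower in Pm2, 3555 and 3394, stayed within 1.5 times under all 16 alternatives run. They were 3279 and 3701 with median-of-ratios scaling and 4035 and 2944 with scaling by the library total, where higher genes made up 57.8% of calls instead of 51.2% and the median of all genes moved by 0.218 on the log2 scale. They were 3517 and 3384 with no filter, 3007 and 3069 with a filter at 100 counts, 3164 and 3161 with only the 6 libraries compared, 3297 and 3750 with DESeq2 (58 of the genes called had no adjusted p there), 3756 and 3385 with limma-trend, 3537 and 3381 with robust estimation, and 3623 and 3620 with the newer edgeR fit, added after seeing the data. Leaving out 1 library gave 3315 to 3612 higher and 3057 to 3358 lower, and 5094 to 5380 genes past 2-fold against 5374.

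Same-numbered Pm2 and glia libraries did not deviate together (correlations 0.0014, -0.0213 and -0.0214), so the numbers were not taken as pairs. A fit with the replicate number as a block called 2582 higher and 2629 lower, 4245 past 2-fold.

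Of 351 named genes called, 51 lost the call under at least 1 alternative, 42 of them under the block and 33 under another alternative. ClC-c lost it under 10 alternatives, mt:Cyt-b under 10, RpS10a and dnc under 8 each, and bab1, Mcr, Fas2 and serp under 7 each. Among these 351 named genes, 1 changed direction. Over all genes called in the main fit, 11 had the other sign without glia replicate 3, the most under any alternative. The NetA log2 difference was -6.66 (edgeR adjusted p = 0.019), ranged from -8.40 to 1.75 with 1 library left out, and was 1.75 without glia replicate 2, the only glia library with a count of it. For genes with no count in a population, depth gives only a lower limit on the fold.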

Other observations

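Genes of the small chromosome 4 leaned towards Pm2. Of 92 tested genes there, 48 were called higher and 20 lower in Pm2, with a median log2 difference of 0.66. The other chromosome arms had medians between -0.01 and 0.06, and over all tested genes 33.8% were called higher and 32.2% lower. The lean was described after its values were seen and was not tested. The GABA transporter gene CG1732 lies on this chromosome and was lower in Pm2, at 1.57 ± 1.03 CPM in Pm2 and 6967 ± 1143 CPM in glia (SD, n = 3 each), as was the lipoprotein gene Rfabg.

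Noncoding RNA genes had 223 called higher and 160 lower in Pm2 of 730 tested, against 3262 and 3158 of 9555 protein-coding genes. The noncoding RNA noe had 6141, 6508 and 5756 CPM in Pm2, against 1191, 1453 and 1458 CPM in glia. Photoreceptor genes ran both ways: eys, which encodes a matrix protein of the eye, had 845, 936 and 919 CPM in Pm2, against 5.31, 0.735 and 3.24 CPM in glia (log2 8.20 ± 0.60 SE; edgeR adjusted p = 3.24e-07), while ninaB, a carotenoid enzyme gene, had 0.424 ± 0.415 CPM in Pm2 and 669 ± 212 CPM in glia.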
